A study of Mus musculus with 6 samples.

Results

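The genes of the proteasome and of its assembly factors were followed in the livers of mice with and without Dicer in hepatocytes. Members were all genes of the deposited tables whose symbol is Psma, Psmb, Psmc, Psmd, Psme, Psmf or Psmg followed by a number. This rule found 48 genes of 50600, and 47 of them passed the filter on low counts, as did 14314 genes in all. The gene outside the filter was Psmb11, the catalytic subunit made in the thymus cortex, which had 1 count in control replicate 3 and 0 in the other 5 libraries.

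RNA from whole liver was sequenced in 6 libraries of C57BL/6 mice that were 1 month old. In the 3 Dicer LKO libraries the mice carried loxP-flanked Dicer alleles and a Cre recombinase under the albumin promoter (Dicerloxp/loxp;Alb-cre). This promoter is active in hepatocytes, and deletion in other cells of the liver was not measured. The 3 control libraries came from Dicerloxp/loxp mice without Cre, so both groups carry the loxP-flanked alleles, although the design text calls the controls wild-type. Labels do not say that each library came from a separate animal, so p-values measure the spread between these libraries, which may be technical. In bulk tissue, fewer cells of a type and less RNA per cell cannot be told apart.

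The proteasome is the protease complex that breaks down proteins marked with ubiquitin. Its 20S core is a barrel of stacked rings: alpha subunits form the gate at either end, and beta subunits form the inner chamber, where Psmb5, Psmb6 and Psmb7 do the cutting. A 19S particle caps the core, binds ubiquitin, unfolds substrates with its ATPases and removes the ubiquitin, while dedicated chaperones build both parts. Under interferon gamma and in immune cells, Psmb8, Psmb9 and Psmb10 take the place of Psmb5, Psmb6 and Psmb7 and form the immunoproteasome, which favours peptides for presentation on MHC class I.

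Dicer1 served as the check of the labels. Its level was 28.9, 31.2 and 24.4 CPM in Dicer LKO replicates 1 to 3 and 42.5, 69.3 and 56.1 CPM in control replicates 1 to 3, where CPM is the count relative to the library's TMM-scaled total. The highest Dicer LKO library lay below the lowest control. edgeR's quasi-likelihood test estimated a log2 fold change of −0.99 (SE 0.20), and its adjusted p (Benjamini-Hochberg) was 0.0622. The deleted part of the gene was not measured separately, and cells other than hepatocytes contribute to these counts. Library totals ranged from 14141973 counts in control replicate 3 to 25049749 in Dicer LKO replicate 3. Control replicate 3 also held 10.2% of its counts in mitochondrial genes, against 4.62% to 6.46% in the other 5 libraries. The summed TPM (transcript abundance per length, on a fixed total) of 10 heart muscle markers was 43.2 there and 0.35 to 9.79 in the others. Hepatocyte markers were high in every library, at 18664 to 33050 TPM for 6 genes.

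No proteasome gene passed the threshold of an adjusted p under 0.05 in either direction (0 of 47, edgeR's quasi-likelihood test). Over all genes tested the share called was 1.29% (185 genes), with 0.741% higher and 0.552% lower in Dicer LKO. At an unadjusted p under 0.05 there were 3 members, Psma8, Psmd8 and Psmd11 (6.38%), against 21% of all genes. Without control replicate 1 that count was 7, against 24% of all genes, and without Dicer LKO replicate 1 it was 1, against 14.8%. DESeq2 called 8.13% of all genes and 1 member, Psma8.

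The differences between the genotypes were small for nearly every member. The median size of the log2 fold change, without its sign, was 0.16 over the members and 0.26 over all genes. For 45 of the 47 members the 95% interval of the difference lay within 1 of 0 on the log2 scale, so that a change of 2 times or more in either direction lay outside it; the share over all genes was 61.8%. The exceptions were Psma8 and Psmd11. A narrower bound of 0.5 held for 21 members, against 19% of all genes. The SE of the members was also smaller, with a median of 0.15 against 0.22, so these shares reflect both the size of the differences and the precision of the values.

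The sign of the difference was more one-sided. It was positive, higher in Dicer LKO, for 39 of 47 members, against 48.6% of all genes, and the median was 0.13 against −0.01. Scaling by library totals alone moved the median of all genes to −0.13, and 26 members were then positive; on log2(TPM + 0.1) it was −0.12, and 27 were positive. Set against the median of all genes in the same setting, 39, 40 and 38 members lay above it with TMM, totals and TPM. The groups' libraries did not overlap for 7 members (28% of all genes). Of these, 6 were higher in Dicer LKO (12.7% of all genes), namely Psma1, Psmc6, Psmd8, Psmd13, Psmd10 and Psmg4, and Psma8 was lower (15.4% of all genes).

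**Figure D1:**
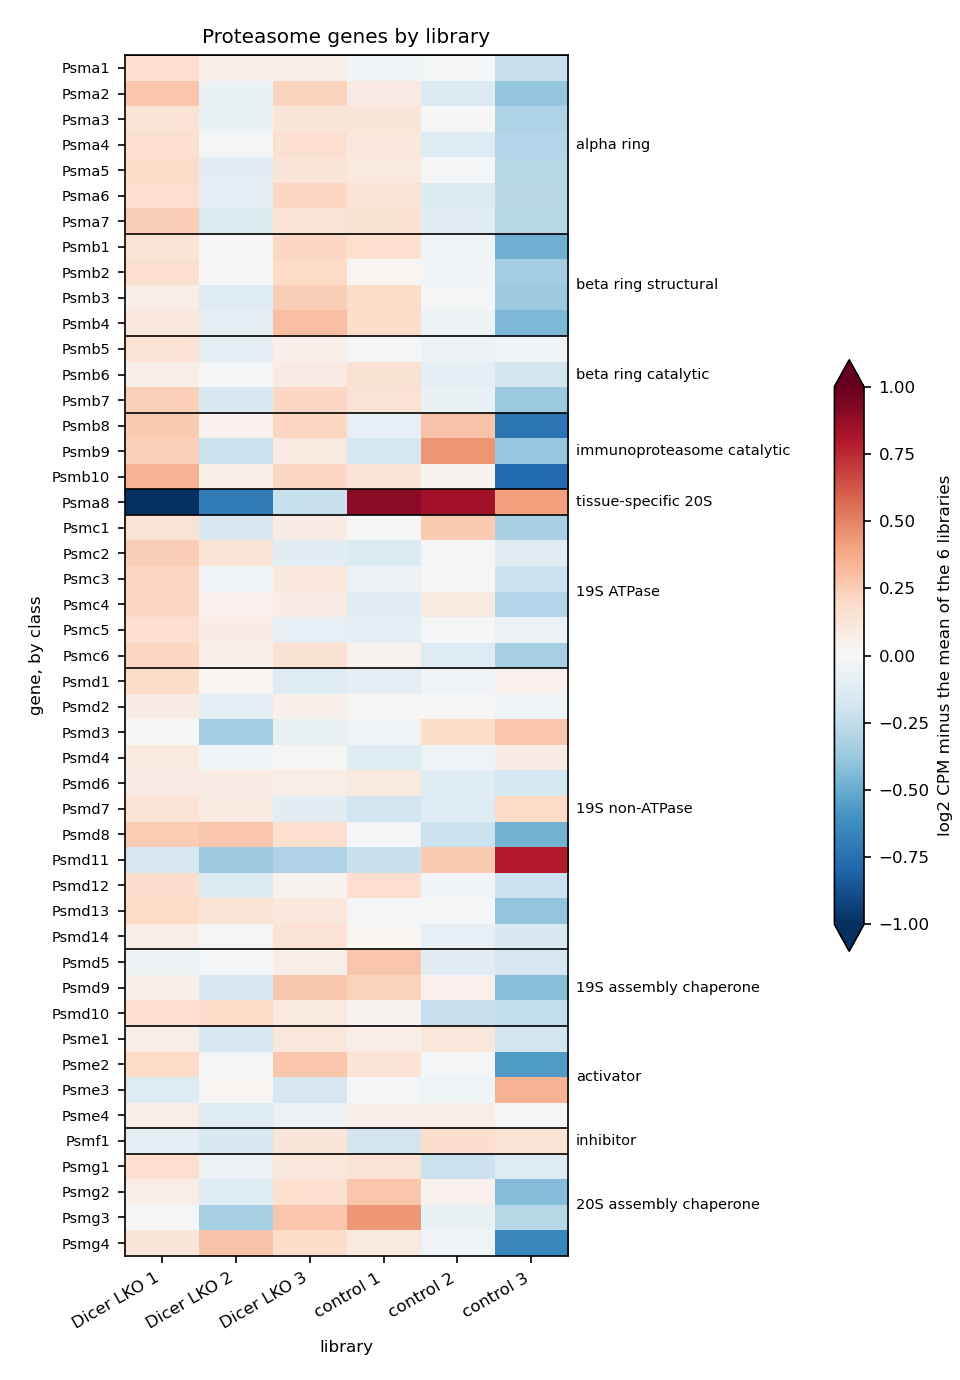
Colour gives the log2 CPM of each of the 47 tested proteasome genes (rows, by class) in each of the 6 libraries (columns), minus the gene's mean over the libraries; values beyond 1 take the end colours. Control replicate 3 is the lowest library for 32 genes. Of the 8 genes with a negative difference, Psma8 and Psmd11 differ most.

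In the colour map, 1 control library stands out. Control replicate 3 held the lowest value of the 6 libraries for 32 of 47 members (68.1%), against 25.5% of all genes. Without it, 33 members were positive, and the members' median stood 0.08 above that of all genes in place of 0.15. Whether the low depth, the mitochondrial share or the heart muscle markers of that library bear on these genes was not tested.

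**Figure D2:**
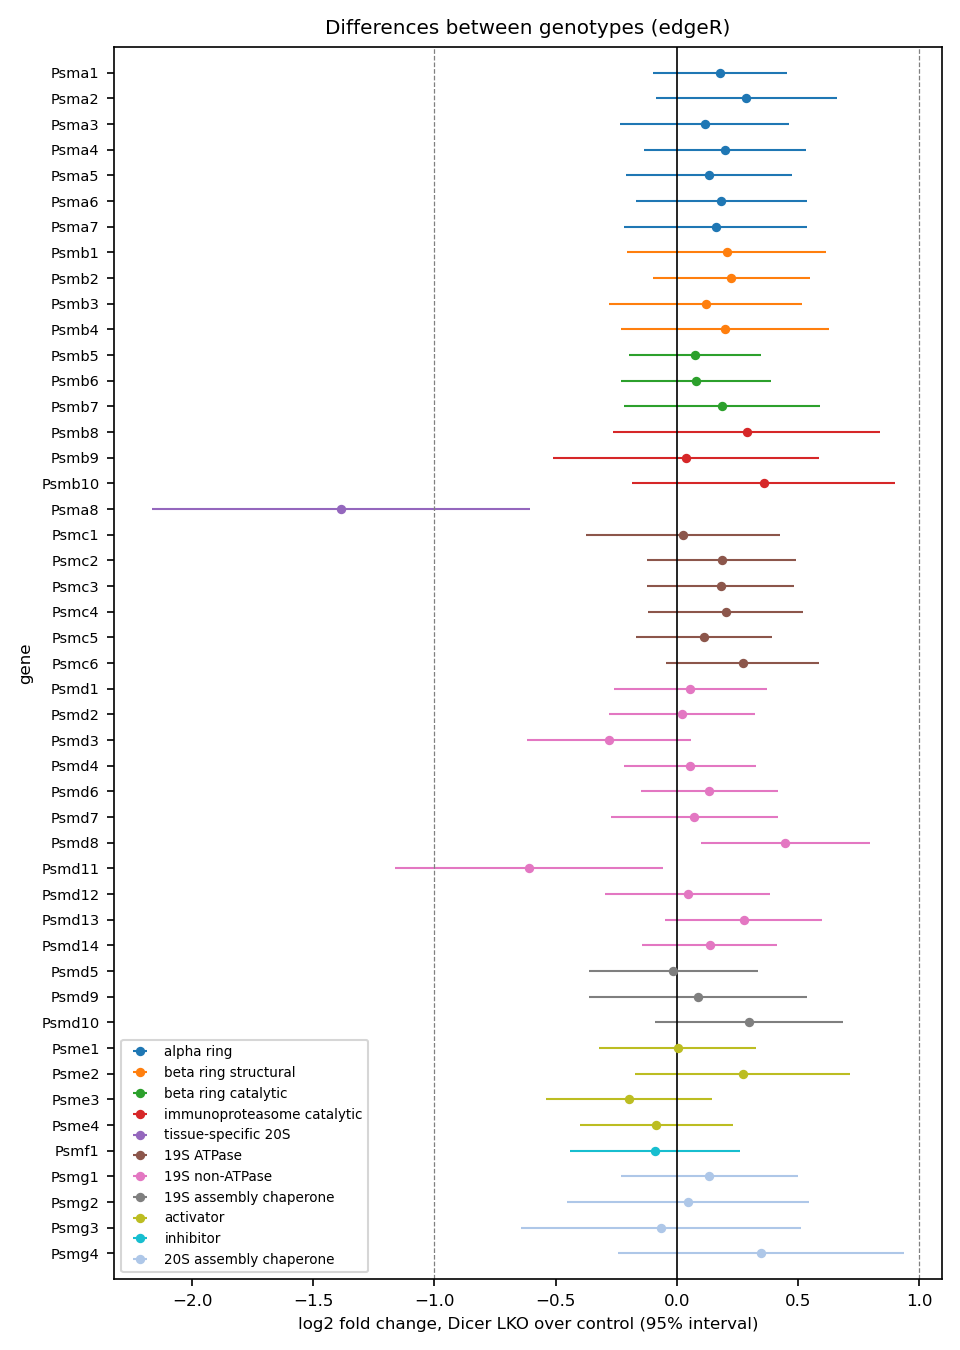
Points give the log2 fold change of Dicer LKO over control for each of the 47 tested genes, coloured by class, and lines its 95% interval from edgeR; dashed lines mark 1 and −1. All but Psma8 and Psmd11 have intervals within the dashed lines.

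In the alpha ring, all 7 constitutive genes had a positive difference, from 0.12 for Psma3 to 0.29 for Psma2, with a median of 0.18 and adjusted p-values of 0.350 or more (edgeR). Psma2 was measured at 49.7, 39.2 and 47.9 CPM in Dicer LKO replicates 1 to 3 and at 43.3, 37.3 and 31.4 CPM in the controls. Dicer LKO replicate 2 fell among the controls, so the groups overlapped. Psma3 had 80.0, 69.4 and 79.2 CPM in Dicer LKO and 79.2, 73.0 and 58.8 CPM in the controls. Its control replicate 1 reached the level of the Dicer LKO libraries, and the overlap was wider. In Psma1 the groups were apart by a small margin, at 59.2, 54.7 and 55.1 CPM against 51.9, 52.1 and 45.3 CPM (log2 fold change 0.18, 95% interval −0.10 to 0.46).

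The structural beta subunits, which hold the chamber together without cutting, were Psmb1, Psmb2, Psmb3 and Psmb4. All 4 had positive differences, from 0.12 for Psmb3 to 0.23 for Psmb2. Psmb2 had 38.7, 34.5 and 39.7 CPM in Dicer LKO and 35.2, 34.0 and 27.4 CPM in the controls. Only control replicate 1 lay above the lowest Dicer LKO library. Psmb3 had 47.0, 41.2 and 53.1 CPM in Dicer LKO and 50.8, 44.3 and 34.8 CPM in the controls. Dicer LKO replicate 2 lay below control replicates 1 and 2.

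The standard catalytic subunits differed little. Psmb5, which carries the chymotrypsin-like activity, had 41.6, 35.5 and 39.1 CPM in Dicer LKO and 37.3, 36.1 and 36.8 CPM in the controls, and its log2 fold change of 0.08 had a 95% interval of −0.20 to 0.35. Psmb6, with the caspase-like activity, had 72.6, 68.8 and 73.7 CPM against 77.4, 65.1 and 61.2 CPM (0.08, −0.23 to 0.39). Psmb7, with the trypsin-like activity, had 75.9, 57.9 and 74.3 CPM against 71.3, 61.5 and 49.9 CPM (0.19, −0.22 to 0.59). In each of the 3 genes the groups overlapped. Scaling by totals, or taking TPM, turned the sign of Psmb5 and Psmb6.

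Over the 14 standard core genes of the alpha and beta rings, the median log2 fold change was 0.18, and it was 0.09 without control replicate 3. All 14 were positive with TMM scaling. With totals or TPM 12 were positive, and all 14 stayed above the median of all genes. Control replicate 3 was the lowest library for 13 of them, while for Psmb5 it was Dicer LKO replicate 2. That replicate was also the lowest of the Dicer LKO libraries for all 14. Relative to each gene's mean, the median log2 level of the 14 was 0.16, −0.08 and 0.18 in Dicer LKO replicates 1 to 3 and 0.12, −0.06 and −0.30 in the controls. Within each group these medians spanned more than the median difference of 0.18 between the groups.

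The 3 immunoproteasome subunits were not called either. Psmb8 had 30.7, 26.4 and 29.6 CPM in Dicer LKO and 24.2, 31.2 and 15.5 CPM in the controls. The controls spanned a range of 2 times, and the highest and the lowest of the 6 libraries were both controls. Psmb10 had 31.8, 26.0 and 28.8 CPM in Dicer LKO and 27.5, 25.4 and 14.5 CPM in the controls, with control replicate 3 far below the other 5. Psmb9 had 12.9, 9.4 and 11.7 CPM against 9.7, 14.9 and 8.4 CPM, and its Dicer LKO libraries lay inside the range of the controls. The log2 fold changes were 0.29 (95% interval −0.26 to 0.84), 0.36 (−0.18 to 0.90) and 0.04 (−0.51 to 0.59) for Psmb8, Psmb10 and Psmb9. Without control replicate 3 they were 0.08, 0.15 and −0.10.

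Blood and immune cells of the liver carry these subunits, so the marker lists of such cells are given beside them. The summed level of 8 macrophage markers was 143, 118 and 155 TPM in Dicer LKO replicates 1 to 3 and 98.3, 148 and 67.7 TPM in the controls. For 6 markers of leukocytes at large it was 53.5, 41.3 and 63.6 TPM against 43.6, 57.5 and 39.5 TPM. Control replicate 2 was the highest and control replicate 3 the lowest of the controls in both sums. In the same unit, Psmb8 had this order in the controls (16.6, 21.8 and 10.2 TPM), whereas Psmb9 was lowest in control replicate 1 (5.91, 10.3 and 7.14 TPM) and Psmb10 highest there (33.5, 28.7 and 20.2 TPM). The 8 markers of T and NK cells summed to 2.59 to 3.26 TPM in Dicer LKO and 2.21 to 3.59 TPM in the controls. The 6 of dendritic cells summed to 66.6 to 158 TPM in Dicer LKO and 59.9 to 93.6 TPM in the controls. Nearly all of the dendritic sum was Cd74 and H2-Aa, at 44.6 to 105 and 21.2 to 51.9 TPM in Dicer LKO. Itgax, the next highest, had 0.33 to 0.75 TPM there. All 8 macrophage and 5 of the 6 leukocyte markers had positive differences, none was called, and none was at 0 in all libraries. The sums of neutrophil and erythroid markers were apart between the groups. The 5 of neutrophils summed to 50.4 to 136 TPM in Dicer LKO against 4.05 to 34.8 TPM, with 0 of 4 tested genes called (edgeR). Mpo and Ly6g of this list overlapped. The 5 of red blood cells summed to 1270 to 2490 TPM against 257 to 380 TPM, with 4 of 5 called higher (edgeR). Alas2 went the other way, at 26.8, 16.7 and 31.6 TPM against 43.5, 35.1 and 49.5 TPM (log2 fold change −0.58, edgeR adjusted p 0.156). The part of these cells in the values of Psmb8, Psmb9 and Psmb10 was not tested.

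The share of each immunoproteasome subunit was set against the subunit it replaces, as a ratio of TPM within a library, which no scaling between libraries can move. Psmb8/Psmb5 was 0.475, 0.448 and 0.493 in Dicer LKO and 0.406, 0.577 and 0.248 in the controls. Psmb9/Psmb6 was 0.103, 0.0824 and 0.0899 against 0.0600, 0.131 and 0.0897. Psmb10/Psmb7 was 0.643, 0.774 and 0.607 against 0.625, 0.658 and 0.545. The groups overlapped in all 3 ratios. Exact two-sided permutation tests gave p = 0.7, 0.9 and 0.5, and 0.9 for each after Benjamini-Hochberg adjustment over the 3 ratios, where 3 against 3 libraries cannot give less than 0.1. Differences of the log2 ratio were 0.28, 0.04 and 0.14. Without control replicate 3 the value for Psmb8/Psmb5 was −0.04. The transcript of Psmb9 was thus rare beside that of Psmb6 in all 6 libraries, while Psmb10 reached more than 0.5 of Psmb7 in all 6.

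**Figure D3:**
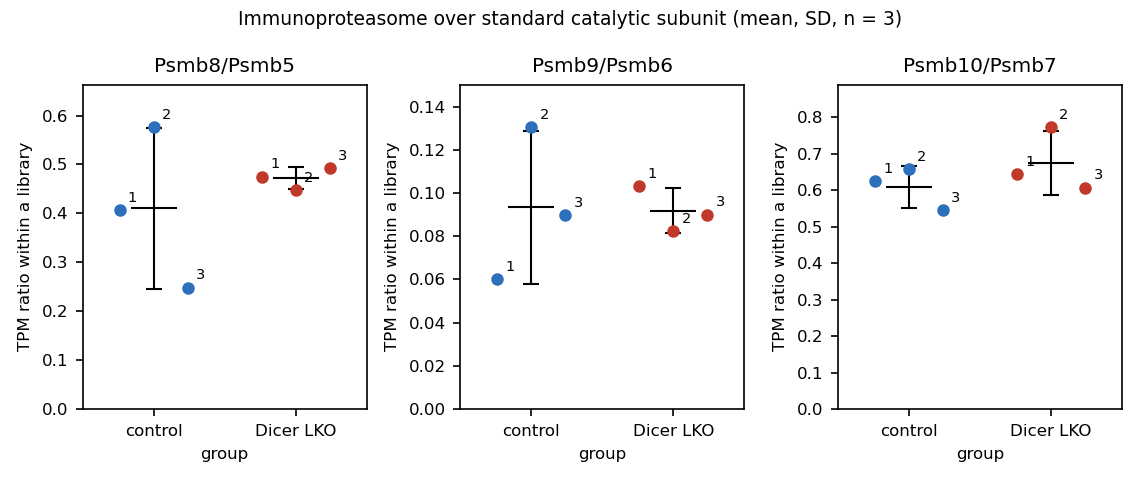
Each panel gives the TPM ratio of an immunoproteasome subunit to the standard subunit it replaces; points are the 3 libraries of a group with replicate numbers, lines the mean and bars the SD. The groups overlap in every panel, and the controls of Psmb8/Psmb5 spread from 0.248 to 0.577.

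Psmb8 and Psmb9 sit beside each other in the MHC region of chromosome 17 (GRCm38; Psmb8 at 34197721 to 34201454, plus strand; Psmb9 at 34181987 to 34187764, minus strand). Exons of Psmb9 overlap those of Tap1, a peptide transporter gene on the opposite strand, and the strand setting of the counting is not given in the sources used here, so the value of Psmb9 is uncertain. The same holds for Psmb7 with Nek6, Psmc3 with Slc39a13, Psmd13 with Sirt3 and Psme1 with Emc9.

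Psma8 encodes the alpha subunit that replaces Psma7 in the testis, and it stood apart from the other members. It had 0.60, 0.86 and 1.2 CPM in Dicer LKO and 2.6, 2.5 and 1.8 CPM in the controls, from 13, 18 and 30 counts against 58, 52 and 29. The groups did not overlap. edgeR's quasi-likelihood test gave −1.39 (SE 0.34, 95% interval −2.17 to −0.61) on the log2 scale at an adjusted p of 0.0841, and DESeq2 one of 0.0197. Its level of 1.13 TPM in the controls was small beside the 56.9 TPM of Psma7, and the expected counts share reads between similar genes by a model, so the value is uncertain.

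The 6 ATPases of the 19S particle, which unfold substrates and thread them into the core, had positive differences with a median of 0.18. Psmc6 was the highest, with 62.3, 55.5 and 59.7 CPM in Dicer LKO and 55.1, 49.1 and 42.7 CPM in the controls. The groups were apart by less than 1 CPM (log2 fold change 0.27, 95% interval −0.04 to 0.59). Psmc1 was the lowest, with 63.0, 51.2 and 60.2 CPM against 57.3, 68.5 and 45.6 CPM. Its controls enclosed the Dicer LKO libraries (0.02, −0.38 to 0.42), and its sign turned with totals and TPM.

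The 11 other 19S subunits held both extremes among the constitutive genes. Psmd8, a subunit of the lid, had 98.7, 100.4 and 92.9 CPM in Dicer LKO and 82.4, 71.6 and 59.7 CPM in the controls. All Dicer LKO libraries lay above all controls, and these varied more than the former. Its log2 fold change of 0.45 (SE 0.15, 95% interval 0.10 to 0.80) had an edgeR adjusted p of 0.152, and without control replicate 3 the value was 0.36. Psmd11, a lid subunit that bridges the 19S particle and the core, had 47.2, 41.4 and 43.0 CPM in Dicer LKO and 45.6, 63.6 and 91.7 CPM in the controls. Control replicate 1 lay among the Dicer LKO libraries, and control replicate 3 was the highest of all. Its log2 fold change of −0.61 (SE 0.24, 95% interval −1.16 to −0.06) had an edgeR adjusted p of 0.203, and without control replicate 3 the value was −0.30. The heart muscle markers summed to 9.79, 9.53 and 43.2 TPM in control replicates 1 to 3. This sum was likewise highest in control replicate 3, mostly through Myl2, and its part in the value of Psmd11 was not tested.

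The remaining 9 lay between −0.28 and 0.28. Psmd3, another lid subunit, had the negative difference of −0.28 (95% interval −0.62 to 0.06), and Psmd13, also in the lid, the positive one of 0.28 (−0.05 to 0.60). Psmd14, the deubiquitinase of the lid, had 0.14 (−0.14 to 0.41), Psmd4, a ubiquitin receptor, 0.05 (−0.22 to 0.33), and the base scaffolds Psmd1 and Psmd2 0.06 and 0.02. The median over the 11 was 0.06, and 2 were negative.

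The factors that build the complex were lower in level and likewise not called. Among the chaperones of the 19S base, Psmd10 (gankyrin) had 6.5, 6.6 and 6.2 CPM in Dicer LKO and 5.9, 4.9 and 4.8 CPM in the controls, without overlap (log2 fold change 0.30, 95% interval −0.09 to 0.69). Psmd5 had 23.6, 24.3 and 25.4 CPM against 29.5, 22.7 and 21.7 CPM, and its Dicer LKO libraries lay inside the range of the controls. Psmd9 was between them, at 0.09. Of the 4 chaperones of the core, Psmg4 had 2.9, 3.3 and 3.1 CPM in Dicer LKO and 2.9, 2.6 and 1.7 CPM in the controls (0.35, −0.24 to 0.94). The margin between its groups was under 0.1 CPM. Psmg3, which pairs with Psmg4, had 5.5, 4.4 and 6.8 CPM against 7.5, 5.3 and 4.6 CPM (−0.07, −0.64 to 0.51), so the controls again spanned the wider range. Psmg1 and Psmg2, the other pair, had 0.13 and 0.05.

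The activators open the core without the 19S particle. Psme1 and Psme2 form the cytoplasmic activator induced by interferon gamma. Psme1 had 57.4, 49.1 and 59.3 CPM in Dicer LKO and 57.6, 59.5 and 48.0 CPM in the controls, a log2 fold change of 0.01 (95% interval −0.32 to 0.33). Psme2 had 40.2, 34.6 and 42.5 CPM against 38.5, 34.8 and 23.7 CPM (0.27, −0.17 to 0.72). Control replicate 3 was the lowest library for both genes, and by the wider margin for Psme2. They are neighbours on chromosome 14 in opposite orientation (GRCm38; Psme1 at 55578123 to 55581529, plus strand; Psme2 at 55587441 to 55591113, minus strand). Psme2b, a near copy of Psme2 outside the naming rule, had 44, 31 and 64 counts in Dicer LKO and 38, 40 and 15 in the controls, so reads of Psme2 may be split with it.

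Psme3 and Psme4 are the nuclear activators. Psme3 had 26.0, 28.7 and 25.3 CPM in Dicer LKO and 28.0, 27.6 and 36.1 CPM in the controls (−0.20, −0.54 to 0.15). Here control replicate 3 was the highest library. Psme4 had 167.4, 146.1 and 153.6 CPM against 165.5, 168.0 and 161.5 CPM (−0.08, −0.40 to 0.23). It had the highest CPM of all members, while per length, at 21.5 TPM in the controls, it stood near the median of the 19S genes. Psmf1, an inhibitor of the core that also acts in proteasome transport, had 19.9, 19.1 and 23.1 CPM against 18.75, 23.97 and 23.34 CPM (−0.09, −0.44 to 0.26), and its groups overlapped.

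**Figure D4:**
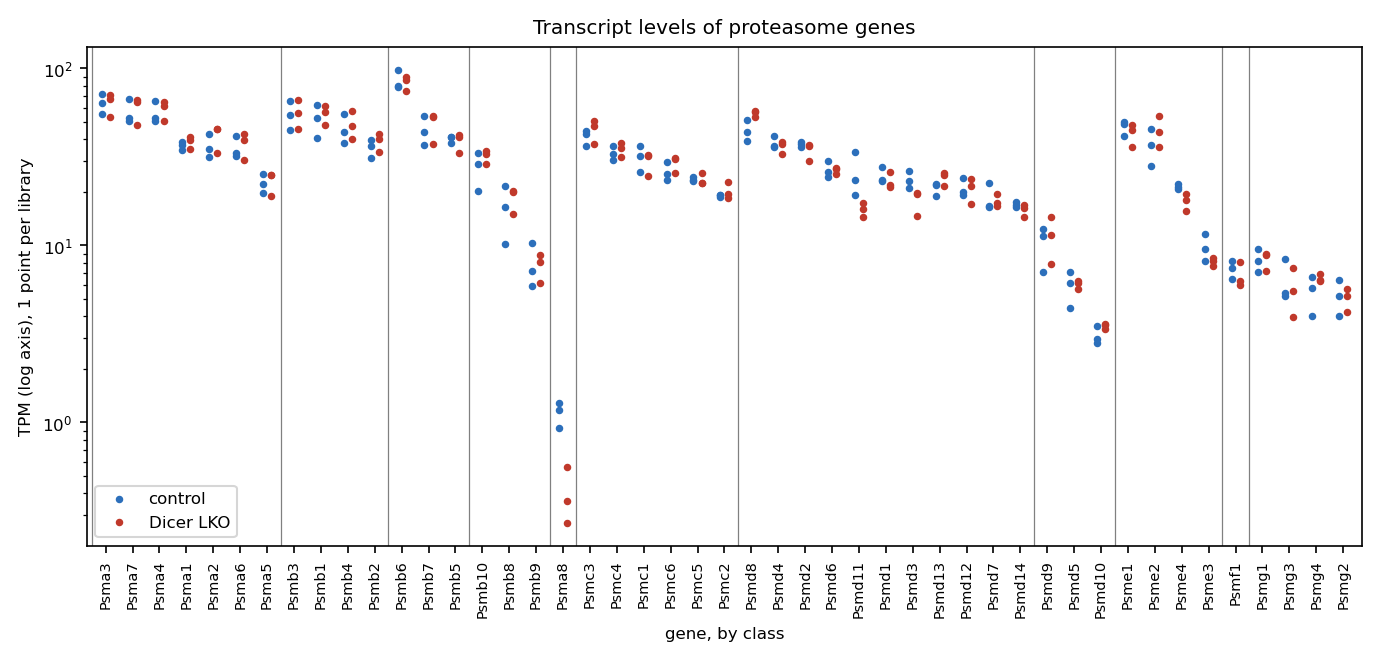
Each point is the TPM (log axis) of a gene in 1 library, with controls in blue and Dicer LKO in red, and lines separate the classes. Core genes lie at 22.5 to 85.5 TPM in the control mean, 19S genes at 17.0 to 44.7 TPM, and Psma8 near 1 TPM.

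Per length, in deposited TPM, levels followed the classes, as the plot by class shows. The 14 standard core genes had control means from 22.5 TPM for Psma5 to 85.5 TPM for Psmb6, with a median of 45.2 TPM. The 17 genes of the 19S particle had a lower median, 25.5 TPM, with a range from 17.0 TPM for Psmd14 to 44.7 TPM for Psmd8. The immunoproteasome genes lay at 27.5 ± 6.70 TPM (SD, n = 3) for Psmb10, 16.2 ± 5.80 TPM for Psmb8 and 7.77 ± 2.24 TPM for Psmb9. The 3 chaperones of the 19S base had 3.10 to 10.3 TPM and the 4 of the core 5.21 to 8.28 TPM. Summed over all members, TPM ranged from 1197 in Dicer LKO replicate 2 to 1499 in Dicer LKO replicate 3.

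Members differ in length, and so did their behaviour in control replicate 3. Over all genes tested, that library lay below the mean of the other controls by a median log2 value of −0.21 for lengths of 500 to 1000 bases, and above it by 0.08 for 3000 to 5000 bases. The 10 members of 500 to 1000 bases had a median of −0.40 and the 22 of 1000 to 1500 bases −0.29, where all genes had −0.17. The 5 members of 2000 to 3000 bases, Psmd11 among them, had 0.20. Across the 47 members Spearman's rho of length was −0.48 with the log2 fold change and 0.54 with the deviation of control replicate 3, and it was 0.25 with that deviation over 14314 genes. These points share 1 library, and genes are not independent replicates. With each library's trend on length taken out, a setting added after seeing the data, 33 members were positive and the members' median was 0.06. Of the 14 standard core genes 11 were then positive.

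**Figure D5:**
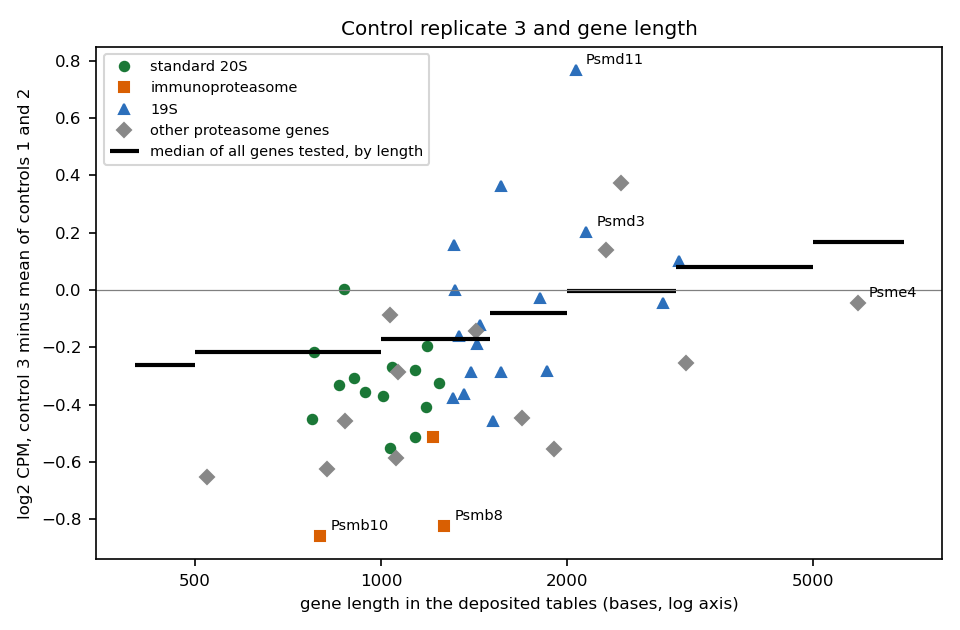
Points give, for each of the 47 tested genes, the log2 CPM of control replicate 3 minus the mean of control replicates 1 and 2 against gene length (log axis); bars give the median of all 14314 genes by length. All 14 standard core genes but Psmb5 lie below 0, and Psmd11 lies highest.

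The promoters were searched for letters known from factors that act on proteasome genes, since NRF1, a factor that raises all proteasome subunits when the complex is impaired, binds antioxidant response elements, and interferon acts through its own elements. The window was the 250 bases upstream of the start in RefSeq (GRCm38.p6), which held 40 of the 48 members and 27025 genes, and both strands were read. The core TGACNNNGC was found in 5 members (12.5%), against 11.52% of all genes, and TTCNNNGAA, the gamma-activated site, in 2 (5.0%), against 8.13%. The matches in the catalytic subunits and in Psmc6 are shown because these genes are compared above, with the match in capitals, at chr14:54618024-54618052 (minus strand) for Psmb5, chr11:70525338-70525356 (plus) for Psmb6, chr14:45329587-45329615 (plus) for Psmc6 and chr17:34198088-34198116 (plus) for Psmb8, where the match is the gamma-activated site. Each sequence is printed on its gene's strand, which is the strand given, and in Psmc6 the letters match as the reverse complement.
Psmb5: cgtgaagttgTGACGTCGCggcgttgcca
Psmb6: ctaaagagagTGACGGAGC
Psmc6: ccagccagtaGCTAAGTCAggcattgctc
Psmb8: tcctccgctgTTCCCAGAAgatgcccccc

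The other 2 members with TGACNNNGC were Psmd12 and Psmd9, and Psmg1 was the other with TTCNNNGAA. The interferon-stimulated response element (GAAA, any 2 bases, GAAA) was in 3 members, Psmb3, Psmd4 and Psmd9 (7.5% against 3.46%). The CCAAT box was in 14 (35.0% against 37.49%), 5 of them alpha ring genes. The 5 members with TGACNNNGC had a median log2 fold change of 0.08, and the 34 tested members without it had 0.13. For TTCNNNGAA these medians were 0.21 (2 members) and 0.12, for the interferon-stimulated element 0.09 (3 members) and 0.13, and for the CCAAT box 0.14 (13 members) and 0.12. A match is only a run of letters, and none was tested for binding.

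Dicer makes mature miRNAs, so sites for 8 miRNAs of the liver (let-7a-5p, miR-192-5p, miR-26a-5p, miR-30a-5p, miR-21a-5p, miR-22-3p, miR-101a-3p and miR-148a-3p) were counted in the longest annotated 3′ untranslated region of each gene. Sites of miR-122, the most abundant miRNA of hepatocytes, were not analysed here. A site is a match to the seed, bases 2 to 8 of the miRNA. Of the 48 members 9 had a site for any of them (18.75%), against 53.24% of 12612 tested genes. Members also had short untranslated regions, with a median of 295 bases against 1185. In Psma2, Psma3 and Psmf1 the region used was 2171, 1952 and 2822 bases. That exceeded the gene's length in the deposited tables, at 944, 1007 and 2314 bases. In Psmd8 it was 1193 bases beside a length of 1363. Sites in these 4 genes may therefore lie in transcripts that were rare in these libraries, and the count of 9 includes them. The miRNAs and sites below are those of miR-30a-5p and miR-148a-3p, shown because they fall in Psmb8 and in Psmd8 and Psmd13, with the seed and its match in capitals.
miR-30a-5p: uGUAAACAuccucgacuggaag
Psmb8 site: agacaaagctcTGTTTACcctctcggccc
Psmd7 site: aggccatgtatTGTTTACcttcaaagata
Psme3 site: gttctgtgacgTGTTTACctcttttttca
miR-148a-3p: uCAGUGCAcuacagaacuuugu
Psmd8 site: aacagtgccagTGCACTGtgtgatagtcg
Psmd13 site: tggagctttggTGCACTGatgtgaagagc

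For miR-30a-5p, the share with a site was 6.25% of members and 16.17% of tested genes, and for miR-148a-3p 4.17% and 15.4%. No member had a site for let-7a-5p, miR-192-5p or miR-26a-5p, which 7.15% to 11.32% of tested genes had. The 9 members with any site had a median log2 fold change of 0.12, and the 38 tested members without one had 0.13. The site genes thus spanned the whole range, from Psma8 at −1.39, with sites for miR-21a-5p and miR-101a-3p, to Psmd8 at 0.45.

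Genes that work with the proteasome were taken from 5 lists, and none of their tested genes was called (0 in each direction, edgeR). Partners outside the naming rule, such as assembly factors and bound deubiquitinases, had 3 positive differences of 12 and a median of −0.14. Pomp, which helps close the core, had 57.7, 50.5 and 52.1 CPM in Dicer LKO and 48.9, 51.8 and 40.9 CPM in the controls (log2 fold change 0.18). Adrm1, a ubiquitin receptor of the 19S particle, had 34.5, 31.7 and 36.4 CPM against 37.7, 41.5 and 46.1 CPM (−0.29). Pomp overlapped between the groups and Adrm1 did not. The 10 genes around NRF1 had 3 positive differences and a median of −0.13. They ranged from −1.31 for Syvn1 (edgeR adjusted p 0.0695) to 0.51 for Maff (edgeR adjusted p 0.601). Their most abundant were Vcp, the unfoldase that frees NRF1 from the membrane (−0.14), and Ddi2, the protease that cuts it (−0.30). Nfe2l1, which encodes NRF1 itself, had −0.11 (95% interval −0.52 to 0.29). It had 101, 99.0 and 92.3 CPM in Dicer LKO and 87.8, 96.8 and 131 CPM in the controls. Its groups overlapped, and control replicate 3 was the highest library. The medians of these lists and of the members lay on opposite sides of 0, a difference that was not tested. The lists were not matched to the members in length. Over all genes tested, the median log2 fold change was 0.11 at 500 to 1000 bases and −0.07 at 3000 to 5000 bases. Vcp, Ddi2 and Nfe2l1 were 3237, 7390 and 3993 bases long.

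Of 12 ubiquitin genes and shuttle factors 4 were positive, with a median of −0.15. Ubb, which encodes ubiquitin, had 607, 602 and 453 CPM in Dicer LKO and 296, 343 and 214 CPM in the controls, without overlap (log2 fold change 0.96, adjusted p 0.0841, edgeR). Ubiquitin genes hold near-identical repeats, so reads may be split among them and this value is uncertain.

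Of 12 genes for MHC class I presentation 7 were positive, with a median of 0.09. B2m, the light chain, had 0.18 and the heavy chain H2-K1, which shares reads with its relatives, −0.09. Of 12 genes of interferon gamma signalling 10 were tested and 7 were positive, with a median of 0.25. Jak1, a kinase of the pathway, had 0.18.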

How the data were processed

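Whole liver RNA was measured in 3 Dicer LKO and 3 control libraries, grouped by their titles. The authors deposited, per library, an expected count (estimated reads of a gene, unscaled) and TPM, with columns as RSEM writes them, per the file headers. CASAVA and Bowtie are named in the submitters' processing notes, with a human build although the gene identifiers are mouse; no source used here gives the counting program, mouse build or strand setting. A deposited table of the whole series repeats the expected counts and was not used.

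Expected counts were rounded. Over all 50600 genes, those at 0 included, 96.0% to 96.5% of the counts in a library were whole. The share over the genes tested was not taken. Counts were filtered with filterByExpr, TMM-scaled and tested with edgeR 4.0.16 (glmQLFit robust, glmQLFTest, R 4.3.3) for genotype alone. P-values were adjusted by Benjamini-Hochberg over 14314 genes. SE is the size of the log2 fold change over the square root of F. CPM was used between libraries and TPM between genes. No 2 libraries were identical, and each was counted as 1 replicate. The test was checked on simulated data. Alternatives were RLE factors, library totals, no filter, DESeq2 1.42.0, limma 3.58.1 on log2(TPM + 0.1), no robust setting, a replicate block, each library left out, and 2 added after seeing the data.

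The members, the 5 pathway lists and the 12 marker lists were chosen with earlier results of these data known. Named with values in every library were the catalytic, activator and inhibitor genes, the members with the highest and lowest log2 fold change of each class of 3 or more, and members under 1 TPM; of each pathway list, the 2 most abundant genes were named, except for some that are not reported here. Psma1, Nfe2l1, Syvn1 and Maff were added after their values were seen. Coordinates and untranslated regions came from GENCODE M21, promoters and miRNAs from RefSeq (GRCm38.p6). Sequences of Psma8 and Psmg2 are not reported here.

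The remaining marker lists were summed in TPM. B cell markers summed to 0.68 to 2.28 for Dicer LKO and 1.07 to 1.39 for controls. Endothelial markers summed to 75.7 to 82.4 and 46.7 to 66.3, and stellate markers to 118 to 145 and 93.1 to 102. None of these 3 lists held a called gene. Bile duct markers summed to 75.5 to 151 and 17.0 to 24.9, and 2 of 5 were called higher (edgeR). Most of the bile duct sum was Spp1, at 71.2 to 145 TPM in Dicer LKO and 14.9 to 23.6 TPM in the controls. Sox9 of this list went the other way (log2 fold change −0.55, edgeR adjusted p 0.463).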

Additional observations from a re-analysis of the deposited data

How the results depend on the processing

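The count of genes called was 185, and it was 103 with library totals, 422 without the filter, 1160 with DESeq2, 44 without Dicer LKO replicate 2 and control replicate 3 together, and 23 to 389 with 1 library left out (23 without control replicate 3, 389 without control replicate 1). Members called were 0 in all of these except DESeq2, which called 1, Psma8 (−1.39). The share of calls that were higher in Dicer LKO was 57.3%, against 48.5% with totals, 49.1% without the filter, 42.2% with DESeq2, and 19.5% to 82.1% with 1 library left out. With a replicate block 245 genes and 0 members were called; same-numbered libraries had correlations of deviations of 0.11, 0.06 and −0.10, so the numbers show no pairing. The median of the 19S genes was −0.0093 with totals and −0.023 on TPM, and that of the ATPases 0.066 with totals. That of the other 19S subunits was −0.0644 with totals, −0.0636 on TPM and 0.095 without the 2 libraries (0.025 to 0.12 with 1 left out), and that of the activators −0.15 with totals and −0.19 on TPM (−0.077 to 0.062). Signs turned with totals, on TPM and with the length trend removed for Psmb5 (−0.042, −0.039, −0.048), Psmb6 (−0.035, −0.031, −0.046), Psmc1 (−0.082, −0.077, −0.040) and Psme1 (−0.10, −0.13, −0.090). They turned with totals and the length trend for Psmb9 (−0.065, −0.046), with the length trend for Psmb3 (−0.0015) and Psme4 (0.072), and with TPM and the length trend for Psmd5 (0.059, 0.019). Without the 2 libraries Psmb9 was −0.0060, Psmc1 −0.033, Psme1 −0.0082 and Psmf1 0.0079. With 1 library left out the ranges were −0.10 to 0.34 for Psmb9, −0.094 to 0.20 for Psmc1, −0.072 to 0.14 for Psmd5, −0.062 to 0.12 for Psme1, −0.14 to 0.00012 for Psme4, −0.19 to 0.0077 for Psmf1 and −0.23 to 0.17 for Psmg3. For the log2 ratios they were −0.038 to 0.57 (Psmb8/Psmb5) and −0.24 to 0.32 (Psmb9/Psmb6, −0.013 from expected counts). The cause was not tested. With 3 libraries a group, the 7SL gene Rn7s1 at 24.5% to 31.0% of TPM, and control replicate 3 the shallowest library, small shifts of the members cannot be resolved; genes at few counts, such as Psma8, are the least precise.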
